A study of Rattus norvegicus with 4 samples.

Results

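Hepatocytes, the parenchymal cells of the liver, were profiled on 2 of the 4 microarrays of the series. The cells were primary hepatocytes from untreated male Sprague-Dawley rats aged 10 weeks. The other 2 arrays held primary liver sinusoidal endothelial cells (LSECs), the cells that line the liver capillaries, from rats of the same strain, sex, age and lack of treatment. The labels give no other treatment or allele, and they leave unsaid whether replicate samples were taken from separate or pooled animals. The hepatocyte arrays were taken by their label, and all 761 rat miRNA probes on each were read, 3 of which name several miRNAs. Spreads between the arrays may therefore be technical, and precision is limited by there being 2 arrays.

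MicroRNAs (miRNAs) are short RNAs cut from hairpin precursors. The mature strand guides a silencing complex to messenger RNAs that pair with its seed, bases 2 to 8 from the 5′ end. Each hairpin can give a strand from its 5p arm and a strand from its 3p arm, of which 1 is usually kept and the other mostly discarded. Liver is known for a single dominant miRNA, miR-122, which hepatocyte transcription factors drive and which supports cholesterol and fatty acid metabolism.

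The unit used throughout was the share of miRNA signal. It is the median brightness of a spot minus the array's mean blank spot, as a percentage of the sum over the 761 probes of the same array. Probes differ in brightness per molecule, so a share is a share of array signal and not of molecules, and ranks between miRNAs carry that limit.

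The mature sequences below, from RefSeq on the GRCr8 rat build, are those of the hepatocyte miRNAs on which the profile turned. They are written 5′ to 3′ with the seed in capitals. The first set holds the 6 of the 25 brightest hepatocyte miRNAs whose share was under 0.1% on the LSEC arrays.
miR-122-5p: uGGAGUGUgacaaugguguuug
miR-122-3p: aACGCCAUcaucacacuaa
miR-194-5p: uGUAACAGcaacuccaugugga
miR-192-5p: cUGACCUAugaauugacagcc
miR-101b-3p: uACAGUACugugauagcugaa
miR-148a-3p: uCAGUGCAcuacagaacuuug

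Of these, miR-122-5p lay at chr18:61028831-61028852 on the plus strand and miR-122-3p at chr18:61028867-61028885, within a transcribed pseudogene, LOC134482951. Mature miR-192-5p lay at chr1:212994232-212994252, in no other gene of the annotation. Identical miR-194-5p sequences came from 2 loci, at chr1:212994038-212994059 beside miR-192 and at chr13:99382730-99382751 within the span of Iars2. The site of miR-101b-3p, chr1:236273982-236274002, fell within the span of Rcl1, and miR-148a-3p at chr4:81664447-81664467 fell in no other gene of the annotation. The table gives spans only, with no exons and no strand for the host genes.

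The next set shows members of shared seeds that ranked high, and last miR-21-5p, whose seed no other probe with a RefSeq sequence shared. The let-7 miRNAs restrain growth, the miR-26 miRNAs are growth-restraining miRNAs lost in liver cancer, and the miR-29 miRNAs repress collagens.
let-7f-5p: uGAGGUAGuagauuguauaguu
let-7a-5p: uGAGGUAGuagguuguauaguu
let-7d-5p: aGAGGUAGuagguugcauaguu
let-7c-5p: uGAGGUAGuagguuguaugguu
miR-26a-5p: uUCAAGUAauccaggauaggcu
miR-26b-5p: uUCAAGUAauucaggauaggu
miR-29a-3p: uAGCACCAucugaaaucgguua
miR-29c-3p: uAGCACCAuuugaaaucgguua
miR-21-5p: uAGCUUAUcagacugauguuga

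The last set pairs bright arms with the other arm of the same hairpin, because the brighter probe was not the arm usually studied.
miR-375-5p: gCGACGAGccccucgcacaaacc
miR-375-3p: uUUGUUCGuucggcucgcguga
miR-204-3p: gCUGGGAAggcaaagggacguu
miR-204-5p: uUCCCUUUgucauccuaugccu
miR-125a-3p: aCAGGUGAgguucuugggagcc
miR-125a-5p: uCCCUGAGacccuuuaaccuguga
miR-652-5p: aCAACCCUaggagggggugccau
miR-652-3p: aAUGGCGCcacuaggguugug

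Summed over the miRNA probes, intensity above the blanks came to 74992 and 129023 units in hepatocytes, against 212814 and 222904 in LSECs. The limit of detection, the blank mean plus 2 SD, equalled a share of 0.00457 and 0.00408% in hepatocytes. By it detection reached 563 and 596 miRNAs in hepatocytes, 504 on both (66.2% of the 761), 151 on 1 and 106 on neither (13.9%). With the local background column of the files subtracted instead, 88 were detected on both. That limit was low for these arrays, since 15 and 18 of the 32 negative control spots also passed it. The brightest negative control spot corresponded to a share of 0.0156 and 0.0171%. By that stricter limit, chosen after the values were seen, 223 miRNAs, or 29.3%, stood out on both hepatocyte arrays, and they held 96.1 and 96.2% of the signal.

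Marker levels were set beside the labels. The markers were chosen with earlier results of these data known, so they are no independent check of the labels. The hepatocyte markers, which are miR-122-5p with the 5p strands of miR-192 and miR-194, together held 32.5 and 33.5% of the signal on the hepatocyte arrays, against 0.0678 and 0.0541% on the LSEC arrays. The endothelial markers, both arms of miR-126a, summed to 0.0329 and 0.0515% in hepatocytes, against 23.2 and 22.7% in LSECs.

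Hepatocytes had 1 miRNA far above all others. The spot of miR-122-5p held 28.5 and 29.4% of the signal on the 2 arrays, a mean of 29.0 ± 0.651% (SD, n = 2), and it was the brightest probe on both. It was 5.35 and 4.84 times as bright as the next probe. With the local background column subtracted its mean share was 16.0%, and it still ranked 1. Its other arm, miR-122-3p, held 2.01 and 2.58%, at ranks 8 and 4, so that the hairpin as a whole held 30.5 and 32.0%. On the LSEC arrays miR-122-5p held 0.0510 and 0.0350%, at ranks 139 and 158.

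The clustered miR-194 and miR-192 are also known from intestine and kidney. The 5p strand of miR-194, a target of hepatocyte nuclear factors, held 2.20 and 2.30% at ranks 6 and 7, against 0.00917 and 0.00864% in LSECs. Its cluster partner miR-192-5p held 1.78 and 1.74% and ranked 12 on both arrays, against 0.00762 and 0.0105% in LSECs. The miRNA with the same seed as miR-192-5p, miR-215, added almost nothing, since miR-192-5p made up 99.7% of that seed's signal.

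At lower ranks, miR-101b-3p, of a family that represses the histone methyltransferase Ezh2, held 0.900 and 0.824%. The level of miR-148a-3p, which represses the low-density lipoprotein receptor, was 0.805 and 0.837%. Both ranked 24 or 25 in hepatocytes, and on the LSEC arrays neither reached 0.1%. Further down, miR-31a-5p held 0.423 and 0.424% at ranks 41 and 40, and miR-483-5p, whose site falls within the span of Igf2, held 0.346 and 0.394% at ranks 47 and 42.

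**Figure D1:**
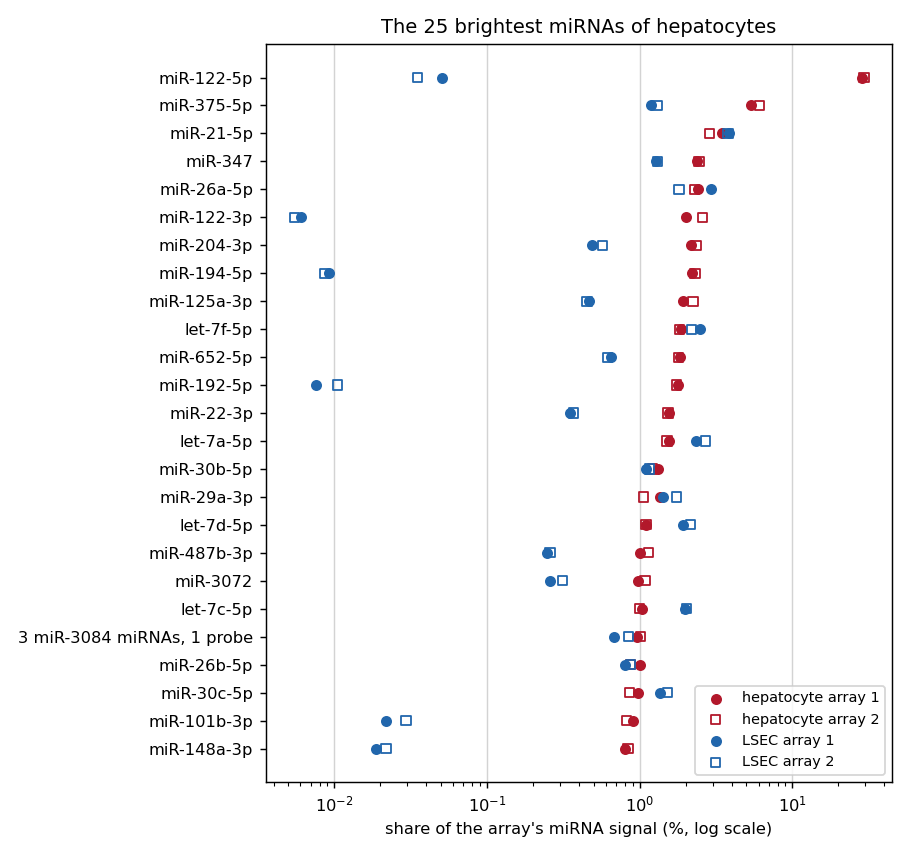
Share of miRNA signal (%, log axis) of the 25 brightest miRNAs of hepatocytes, ordered by their mean over the hepatocyte arrays. Red marks are hepatocyte arrays, blue marks LSEC arrays, 1 mark an array: miR-122-5p stands at 28.5 and 29.4% in hepatocytes, and 6 of the 25 lie under 0.1% in LSECs.

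The same 25 miRNAs led on both hepatocyte arrays. The top 10 were shared as well, as were 49 of the top 50 and 95 of the top 100. Of the 25, 11 were also among the 25 brightest of LSECs by mean share. Shares of 16 of the 25 were higher on both hepatocyte arrays than on both LSEC arrays. Over all 761 probes 50.3% were so placed, and the 25 were chosen for brightness in hepatocytes, so nothing is read from the excess. Another 7 of the 25 had lower shares on both hepatocyte arrays, where the figure over all probes was 23.8%. The 6 that stayed under 0.1% in LSECs were miR-148a-3p, miR-101b-3p, miR-192-5p, miR-194-5p and both strands of miR-122. Of all 761 probes, 97 and 96 exceeded 0.1% on the LSEC arrays, so most probes stayed under it.

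Several miRNAs known from many tissues also ranked among the 25. The probe of miR-21-5p, which is induced in injured and regenerating liver, ranked 3 on both arrays with 3.44 and 2.88%, against 3.85 and 3.79% in LSECs. Growth-restraining miR-26a-5p held 2.41 and 2.28% in hepatocytes, and the LSEC values of 2.94 and 1.81% lay on either side. The share of miR-22-3p was 1.56 and 1.53%, against 0.349 and 0.369% in LSECs. For miR-30b-5p it was 1.31 and 1.21%, and for miR-29a-3p it was 1.37 and 1.06%, a wider gap between arrays than its neighbours showed.

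The signal was concentrated in few probes, yet it had a long tail. The 10 brightest held 52.2 and 54.4% of it on the hepatocyte arrays, a mean of 53.3 ± 1.54% (SD, n = 2), and 19 and 21 miRNAs exceeded 1%. Reaching 50% of the signal took 9 and 8 miRNAs, whereas 90% took 86 on each array. That count depended on the background: it averaged 136.5 with normexp, a model-based correction, and 332 with the local background column subtracted. The effective number of miRNAs, the count of equally bright miRNAs that would have the same Shannon entropy, was 50.3 and 47.2, a mean of 48.7 ± 2.17, against a mean of 113 with the local background column subtracted. Most of this concentration was miR-122-5p: without it the effective number was 103.9 and 99.8, and the top 10 of the rest held 35.7 and 37.9%.

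LSECs were less concentrated at the top. Their 10 brightest held 44.1 and 42.5%, their effective number was 66.2 and 67.3, and their brightest miRNA, miR-126a-3p, held 20.5 and 20.1%. The hepatocyte minus LSEC differences were 9.99 percentage points for the top 10, -18.0 for the effective number and 8.69 points for the brightest miRNA, and hepatocyte arrays lay apart from LSEC arrays in each. An exact two-sided permutation test gave p = 0.333 for each of the 3 measures (0.333 after Benjamini-Hochberg adjustment), the smallest p that 2 against 2 arrays allow, so the differences were not established by it. All 3 turned the other way with the local background column of the files subtracted, to -4.40 points, 62.9 and -15.3 points. Without the brightest miRNA of each array the effective numbers came close, at 103.9 and 99.8 in hepatocytes, against 103.0 and 103.4 on the LSEC arrays. The other measures stayed apart without it: the top 10 of the rest held 35.7 and 37.9% in hepatocytes, against 32.2 and 30.4% in LSECs, and 90% of the rest took 120 probes on each hepatocyte array, against 96 on each LSEC array.

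**Figure D2:**
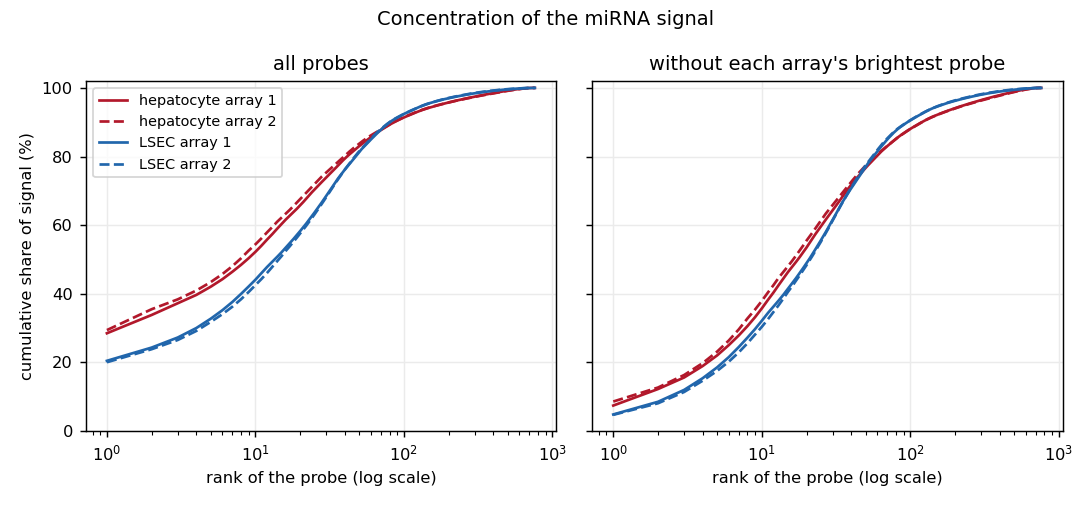
Cumulative share of miRNA signal (%, vertical) by rank of the probe (log axis), for all probes at left and without each array's brightest probe at right; red lines are hepatocyte arrays and blue lines LSEC arrays. At rank 10 the hepatocyte lines stand at 52.2 and 54.4% and the LSEC lines at 44.1 and 42.5%, and the lines cross before 90%, which takes 86 probes in hepatocytes and 81 and 80 in LSECs.

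The 684 miRNAs with a RefSeq mature sequence held 91.4 and 91.5% of the hepatocyte signal and fell into 580 seeds, of which 71 had several members. The 10 leading seeds held 58.8 and 60.1% of the signal. The seed of miR-122-5p, GGAGUGU, was shared by no other probe and led with 28.5 and 29.4%. The let-7 seed, GAGGUAG, came next with 7.57 and 7.36% over 9 members, all detected on both arrays, against 12.3 and 12.4% in LSECs. Its signal was spread widely, since the leading member let-7f-5p made up 24.7% of it. Beside let-7f-5p at 1.86 and 1.83% stood let-7a-5p at 1.55 and 1.51%, let-7d-5p at 1.10 and 1.10%, and let-7c-5p at 1.03 and 1.0%. At the other end were let-7i-5p at 0.0798 and 0.0895% and miR-98-5p at 0.0666 and 0.0623%. Cross-hybridisation between probes for such similar sequences cannot be told apart here from separate expression.

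The miR-26 seed, UCAAGUA, held 3.42 and 3.14%, of which miR-26a-5p made up 71.4%. The miR-29 seed, AGCACCA, held 2.20 and 1.69% over 3 members, with miR-29a-3p, miR-29c-3p and miR-29b-3p in that order. All 3 had larger shares on array 1. By name, the 5p strands of the 5 miR-30 miRNAs summed to 3.80 and 3.50%, against 5.27 and 5.46% in LSECs, while the 4 probes that share the miR-30 seed in the RefSeq table, which does not list miR-30b-5p or miR-30d-5p, held 1.93 and 1.75%. Of the 10 leading seeds, 7 had a single probe. The ranking leaves out probes without a RefSeq sequence, among them miR-30b-5p, miR-30d-5p and miR-347. With them the 10 leading seeds, their summed share and this count could change.

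**Figure D3:**
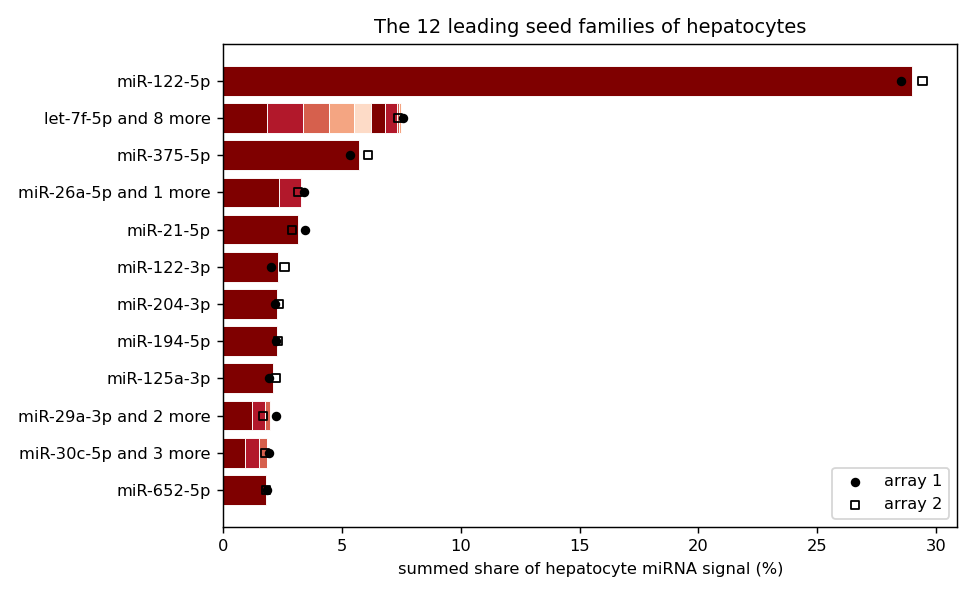
Summed share of hepatocyte miRNA signal (%) of the 12 leading seed families among miRNAs with a RefSeq sequence. Each bar is the mean of 2 arrays, divided into its members from brightest to dimmest. The filled circle is array 1 and the open square array 2: the miR-122-5p seed stands at 28.5 and 29.4%, the 9 let-7 and miR-98 miRNAs at 7.57 and 7.36%.

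Signal was also summed over neighbouring hairpins in the genome, and some of the brighter clusters are given here. Among 52 clusters of RefSeq hairpins no more than 10 kb apart on a strand, the pair of miR-194-2 and miR-192 at chr1:212994024-212994318 could account for 4.05 and 4.13% of the hepatocyte signal. Without miR-194-5p, which also has the locus on chromosome 13, it held 1.85 and 1.82%. The cluster of let-7a-1, let-7f-1 and let-7d at chr17:16320133-16322357 could account for 4.55 and 4.46%, of which 1.14 and 1.12% came from sequences with no second locus. All 6 probes of the miR-99b, let-7e and miR-125a cluster at chr1:67350064-67350759 had a single locus, and they held 2.60 and 2.88%. The imprinted cluster on chromosome 6, with 31 hairpins and 59 probes, held 1.95 and 2.17%, against 1.94 and 2.18% in LSECs.

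Several bright probes belonged to the arm that is not the usual guide strand. The probe of miR-375-5p was second on both arrays with 5.33 and 6.08%, while miR-375-3p, the islet miRNA that restrains insulin secretion, held 0.00611 and 0.0104%, below the brightest negative control spot on each array. Similarly, miR-204-3p held 2.17 and 2.36%, against 0.00122 and 0.0121% for miR-204-5p, the strand known from retinal pigment epithelium. For miR-125a the 3p probe held 1.93 and 2.23%, and the 5p probe, whose seed is that of lin-4, held 0.0637 and 0.0420%. For miR-652 the 5p probe held 1.83 and 1.79%, and the 3p probe held 0.0226 and 0.0239%. The probe of miR-347, at rank 5 on both arrays, held 2.39 and 2.45%.

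The brightest probes were also set against the spots that the files name as spike controls. The 16 spike spots averaged 18098 and 30556 units above the blanks in hepatocytes, against 12417 and 12327 units in LSECs. Relative to that mean, miR-375-5p stood at 22.1 and 25.7% in hepatocytes, against 20.3 and 23.4% in LSECs. The 3p probe of miR-204 stood at 8.98 and 9.96%, against 8.39 and 10.3%, and that of miR-125a at 7.98 and 9.44%, against 7.95 and 8.16%. In each of these, values of the cell types overlapped. The probes of miR-652-5p and miR-347 did not overlap and were lower in hepatocytes, with 7.58 and 7.54% against 11.1 and 11.2% for miR-652-5p, and 9.90 and 10.3% against 22.0 and 23.6% for miR-347. Overlap was seen for 6 of the 25 brightest miRNAs, the others being miR-22-3p, miR-487b-3p and miR-3072. Levels against the spike spots were compared for these 25 alone. How often such levels overlap over all probes was not tested, so the overlap is not read as particular to the 6. On the same scale miR-122-5p stood at 118 and 124%, against 0.875 and 0.632% in LSECs. The 6 miRNAs that were under 0.1% in LSECs were all higher in hepatocytes. They had been picked as bright in hepatocytes and faint in LSECs, so nothing is read from this. The remaining 13 were lower in hepatocytes, let-7f-5p for instance at 7.71 and 7.71%, against 42.8 and 39.3%. Summed miRNA signal was lower in hepatocytes as well, at 74992 and 129023 units, against 212814 and 222904, while their spike mean was higher. How many of all probes were lower on this scale was not counted, so nothing is read from the 13. Together the 6 overlapping miRNAs, chosen after their values were seen, held 13.0 and 14.4% of the hepatocyte signal, and leaving them out put miR-122-5p at 32.8 and 34.4%. Whether hybridisation that does not depend on the sample contributes to them was not tested.

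Arms were compared in 235 hairpins with a probe for each and at least 1 arm detected on both arrays. The 5p arm was brighter on both arrays in 110, the 3p arm in 103, and the arrays disagreed in 22. With the local background column subtracted the 5p arm led in 23, and with detection set at the brightest negative control spot it led in 71. The counts were 17 and 14 among the 31 hairpins whose arms both exceeded the brightest negative control spot, with none in disagreement. In those 31 the brighter arm led by a median of 4.33-fold, by at least 10-fold in 10 and by under 2-fold in 7. The brightest 5p-led hairpins were those of miR-122, miR-375, miR-21, miR-26a and miR-194, and the brightest led by 3p were those of miR-204, miR-125a, miR-22, miR-29a and miR-487b. For miR-122 the lead was 12.6-fold, for miR-194 it was 58.1-fold and for miR-192 it was 49.3-fold, all toward 5p, and for miR-22 it was 9.39-fold toward 3p. Both strands of miR-31a were bright, with miR-31a-3p at 0.0804 and 0.0901%, a lead of 4.97-fold for 5p.

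The base at the 5′ end, which silencing complexes are known to favour as U, was compared too. Sequences that begin with U made up 36.1% of the probes with a sequence, yet they held 63.2 and 61.9% of the signal of those probes. Without miR-122-5p the figures were 46.5 and 43.8%. In the 114 hairpins with a consistent lead, both arms detected and both sequences listed, the brighter arm began with U in 50 and the dimmer arm in 30. Both arms exceeded the brightest negative control spot in 31 hairpins. Where both arms lie under it the lead carries no order. How many of the 114 do was not counted, so nothing is read from 50 against 30. Over 447 miRNAs detected on both arrays, the share correlated with the GC content of the mature sequence at a Spearman rho of 0.124. This is across miRNAs that share 2 arrays, and is given as a description. Only 223 of the 761 miRNAs exceeded the brightest negative control spot on both arrays. Part of the 447 thus lay where shares carry no order, and the rho does not show how far brightness depends on composition.

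**Figure D4:**
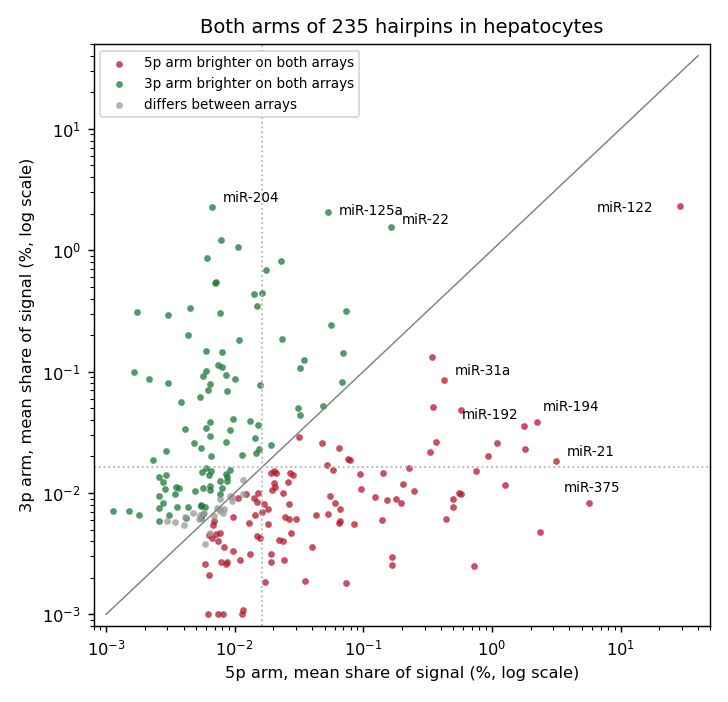
Mean share of miRNA signal over the hepatocyte arrays (%, log axes) of the 5p arm (horizontal) and the 3p arm (vertical) of 235 hairpins, coloured by which arm was brighter on both arrays. Shares under 0.001% are drawn at 0.001%, the diagonal marks equal arms and the dotted lines mark the brightest negative control spot: the 5p arm leads in 110 hairpins and the 3p arm in 103.

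All 8 miRNAs of a lipid and sterol list were above the brightest negative control spot on both arrays, where 29.3% of all probes were. They summed to 1.92 and 1.90% of the signal, against 1.23 and 1.26% in LSECs, led by miR-148a-3p. Not all were higher in hepatocytes, since miR-27b-3p held 0.305 and 0.279%, against 0.915 and 0.956% in LSECs. Their median share was 0.179 and 0.159%, beside a median over all 761 probes of 0.00893 and 0.00926%. This list and the glucose and injury lists below were chosen with earlier results of these data known. Nothing is therefore read from their excess over all probes. The strand miR-378a-3p, from within the metabolic coactivator gene Ppargc1b, held 0.314 and 0.316%, and miR-378a-5p held 0.0747 and 0.0709%. The share of miR-33-5p, which lies in the sterol regulator Srebf2 and represses the cholesterol exporter Abca1, was 0.0479 and 0.0557%, at ranks 135 and 128.

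In a glucose and insulin list, 6 of 7 were above that limit on both arrays, against 29.3% of all probes, and the hepatocyte sum was 2.69 and 2.12%, against 3.68 and 4.09% on the LSEC arrays. Collagen-repressing miR-29a-3p led it. In mice induced by obesity, miR-802-5p ranked 79 on both arrays with 0.150 and 0.133%, against 0.000552 and 0.00104% in LSECs. Insulin-sensitivity miRNAs miR-103-3p and miR-107-3p held 0.173 and 0.146% and 0.157 and 0.132%. The exception was miR-143-3p, a smooth muscle miRNA, at 0.00896 and 0.0127%.

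A list of miRNAs tied to injury, culture or loss of the hepatocyte state summed to 4.0 and 3.45%, against 3.98 and 3.91% in LSECs. It was led by miR-21-5p, followed by miR-31a-5p at 0.423 and 0.424%. Its p53-induced member miR-34a-5p held 0.0192 and 0.0253%, and miR-221-3p held 0.0957 and 0.106%. The cluster partner miR-222-3p was detected on array 2 alone, at 0.00549%. The list named 6 miRNAs, 4 of them above the brightest negative control spot on both arrays, beside 29.3% of all probes.

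Markers of other cells were faint. The 37 markers of 7 other lists summed to 0.438 and 0.432% in hepatocytes, against 26.1 and 25.7% in LSECs, most of which was miR-126a. None ranked above 139 by mean share in hepatocytes. The mean hepatocyte sum was 0.654% with normexp and 1.54% with the local background column subtracted. In bulk samples, fewer cells of a type and less RNA per cell cannot be told apart. Of the endothelial list miR-126a-3p held 0.0258 and 0.0404%, above the brightest negative control spot, and miR-126a-5p held 0.00707 and 0.0112%, below it.

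Leukocyte and Kupffer cell markers summed to 0.0629 and 0.0469%. None of the 6 exceeded the brightest negative control spot on both arrays, as 29.3% of all probes did, and miR-155-5p was detected on neither, as were 13.9% of all probes. The brightest, the myeloid miR-223-3p, held 0.0238 and 0.0139%. Both strands of miR-511, from within Mrc1, were undetected on array 1 and summed to 0.00696 and 0.0111%. Stellate and mesenchymal markers summed to 0.0665 and 0.0720%, where miR-199a-3p was undetected on both arrays and miR-214-3p alone of the 6 exceeded the brightest negative control spot on both.

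Epithelial and bile duct markers of the miR-200 family, which maintain the epithelial state by repressing Zeb1 and Zeb2, summed to 0.0809 and 0.0942% in hepatocytes, against 0.0141 and 0.0170% in LSECs. Of 5 members, miR-200b-3p at 0.0262 and 0.0408% and miR-200a-3p at 0.0205 and 0.0267% were above the brightest negative control spot on both arrays, and miR-200c-3p was detected on array 1 alone. Erythroid markers summed to 0.0875 and 0.0655%, against 0.0384 and 0.0396% in LSECs, led by miR-451-5p at 0.0537 and 0.0323%, and miR-144-5p was undetected on both arrays. Muscle and neural miRNAs, which liver cells are not known for, summed to 0.10 and 0.0903% over 12 probes, against 0.0495 and 0.0569% in LSECs. The brightest negative control spot was also a larger share in hepatocytes, at 0.0156 and 0.0171%, against 0.00759 and 0.00710% in LSECs. Nothing is therefore read from sums of faint probes that were higher in hepatocytes. Of the 12 muscle and neural probes, 7 were detected on both hepatocyte arrays, where 66.2% of all probes were, and miR-133b-3p alone lay above the brightest negative control spot on both. Their median share was 0.00879 and 0.00761%, beside 0.00893 and 0.00926% over all 761 probes. All of these medians lay under the brightest negative control spot, so no order is read from them.

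The hepatocyte arrays agreed best at the top. Among the 504 miRNAs detected on both, 433 had shares within 1.5-fold of each other and 13 differed by more than 2-fold. The median ratio between the arrays was 1.06-fold among ranks 1 to 25, 1.11-fold among ranks 26 to 100 and 1.16-fold among ranks 101 to 200. It was 1.27-fold among those detected on both at ranks 301 to 504. Log2 shares correlated at r = 0.981 and shares at a Spearman rho of 0.925, across miRNAs, which are not independent replicates.

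The widest ratio was that of miR-335, encoded within the imprinted gene Mest, with 0.0620 and 0.00477%, a ratio of 13.0-fold. Its array 2 share lay under the brightest negative control spot of that array, 0.0171%, so the size of the ratio is uncertain. Within the 100 brightest, the shares higher on array 1 were led by miR-3593-3p with 0.249 and 0.148% and miR-29b-3p with 0.220 and 0.142%, and those higher on array 2 by miR-130a-3p with 0.0758 and 0.107% and miR-92b-5p with 0.284 and 0.373%. Among the top 25 the widest ratio was that of miR-122-3p, 1.29-fold. Each miRNA has 1 spot an array, so these ratios hold spot error as well as any difference between samples. The 16 spike spots varied by 7.86 and 7.60% (coefficient of variation) within the hepatocyte arrays.

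**Figure D5:**
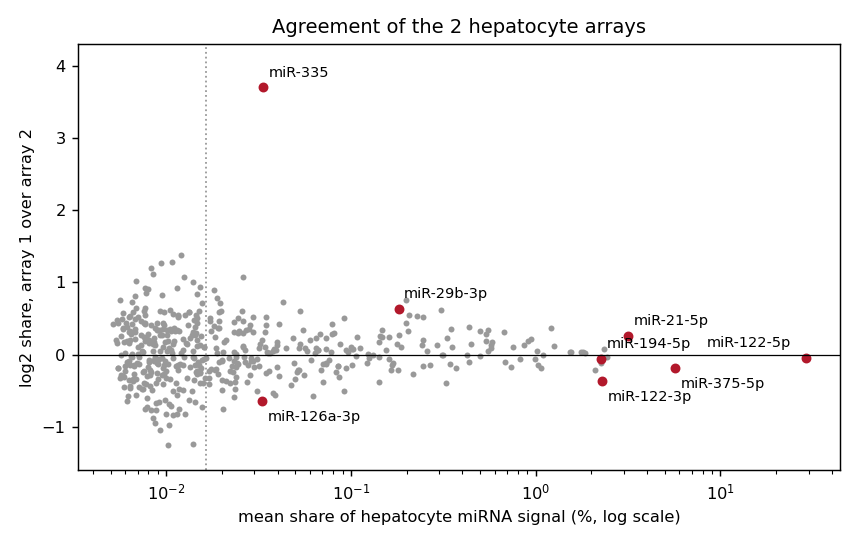
Log2 ratio of the share on hepatocyte array 1 over array 2 (vertical) against the mean share (%, log axis) of the 504 miRNAs detected on both arrays, with the dotted line at the brightest negative control spot. Points scatter more widely toward low shares, and miR-335 stands apart with 0.0620 and 0.00477%.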

How the data were processed

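Total RNA was labelled with Cy5 and hybridised to single-colour Toray 3D-Gene arrays, per the labels. The authors' deposited scanner tables give each of 3200 spots a linear median intensity at 635 nm, merged from scans at 3 gains per the file headers, with background included. The image software was not given in the sources used here. The authors also deposited processed intensity values. Set against the scanner tables, these equal the blank-corrected spot times a constant for each array that puts the median listed miRNA at 25.

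Here the mean of the 1664 blank spots, without the top and bottom 5%, was subtracted, values below it were set to 0, and each miRNA probe was divided by the array's sum (Python 3.11.15, pandas 2.3.3). Normexp (R 4.3.3, limma 3.58.1, offset 0) and other settings of the background, detection limit and probes were alternatives. The measures were tested on simulated data. Between cell types, 3 concentration measures had exact permutation tests. Other comparisons, by shares that do not overlap and by level against the spike spots, are descriptions with no test. Named miRNAs were the 25 brightest, both arms of the leading hairpins, members of the leading seeds, marker and role lists, the 5 brightest hairpins per leading arm, and those with the widest ratio between arrays. Others (miR-31a, miR-335, miR-483-5p) were chosen after their values were seen. The members and lists were chosen with earlier results of these data known.

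Sequences came from RefSeq (GRCr8): 685 probe names matched, and 684 with a single sequence were used.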

Additional observations from a re-analysis of the deposited data

How the results depend on the processing

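In all 9 settings compared, the reported one included, miR-122-5p was first and miR-375-5p second by mean share, and 24 or 25 of the 25 brightest miRNAs stayed among the top 25, except with the local background column subtracted, where 17 did. Of 137 alternative values, 113 stayed within the spread between arrays, or within 1.5 times for counts, or kept their direction. Subtracting the local background column moved most. It left 88 miRNAs detected on both arrays and 23 hairpins led by 5p. The share of miR-122-5p became 16.0%, that of the top 10 47.0%, that of the leading seeds 43.2% and that of the non-hepatocyte markers 1.54%. It took 332 miRNAs to hold 90% of the signal, the effective number was 113, and the median log2 difference between the hepatocyte arrays was 0.648. The hepatocyte minus LSEC differences turned to -4.40 points for the top 10, 62.9 for the effective number and -15.3 points for the brightest miRNA. The cause was not tested.

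Normexp put miR-122-5p at 27.5%, the top 10 at 50.8%, the top 10 without miR-122-5p at 34.4%, the leading seeds at 56.6% and the non-hepatocyte markers at 0.654%. With it 136.5 miRNAs on average held 90% of the signal and the effective number was 61.6. With undetected spots at 0, and in the authors' values, the non-hepatocyte markers summed to 0.417%. A limit of 5 SD left 298 miRNAs detected, and the brightest negative control spot, an alternative chosen after seeing the data, left 223 detected and 71 hairpins led by 5p.

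Without either hepatocyte array in turn, the share of miR-122-5p ran from 28.5 to 29.4%, the count detected from 563 to 596 and the hairpins led by 5p from 130 to 134. Without any 1 of the 4 arrays the top 10 difference ran from 8.90 to 11.1 points. No paired analysis was possible because the labels tie no hepatocyte array to an LSEC array, and pairing by number would leave the mean differences as they are. Depth is limited by the background: shares under the brightest negative control spot, 0.0156 and 0.0171%, carry no order.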
